A study of Homo sapiens with 72 samples.

Results

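The response of STK19 knockout cells to an inhibitor of the checkpoint kinase ATR was measured at the 4 h time point after ultraviolet (UV) irradiation and treatment, as RNA levels across all genes. The comparison holds 12 of the 72 libraries of the series: 6 with inhibitor and 6 with solvent, 3 of each in both knockout clones, and each clone was set against its own solvent libraries. STK19_KO1 and STK19_KO2 are 2 clones in which STK19 was knocked out, made from HEK293 Flp-In T-REx, an embryonic kidney line of human origin that carries a site for targeted insertion of transgenes. The inhibitor group (ATRi) received 3 µM VE-821 and the control group received DMSO, its solvent. Every one of these cultures had been irradiated and left to recover for 3 h before either was added. Their UV dose is not stated in the labels. The series design counts the hours from irradiation, whereas the descriptions of the samples start at the addition of inhibitor or solvent, so the origin of the 4 h is not settled. Inhibitor without irradiation was not analysed here, so an effect of ATRi alone and one that needs UV cannot be told apart. Besides these clones, the series holds a single knockout clone of CSB (CSB_KO) and the unedited parent line (WT), each with the same 6 conditions: untreated (0 h), 3 h after UV, and ATRi or DMSO at 4 h and 20 h.

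ATR is activated at stretches of single-stranded DNA, such as those that form at stalled replication forks and during repair of UV damage, and it slows the cell cycle through the kinase CHK1. STK19 takes part in transcription-coupled repair, in which RNA polymerase II that has stopped at a UV lesion recruits CSB and further repair factors. Among the first genes to respond to growth factors and stress are the immediate early genes, which include EGR1, FOS, JUN and MYC. They are short, they need no new protein synthesis for induction, and their RNAs turn over quickly. Transcription factors such as the serum response factor (SRF), which binds the CArG box, keep their promoters ready for induction.

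The libraries held 38.5 to 149.7 M counts with ATRi and 44.0 to 74.2 M with DMSO, so the deepest libraries were in the ATRi group. Replicate 1 of STK19_KO1 with ATRi lay apart from both other replicates of its group, with chi-square values per gene of 61.9 and 125 against 3.63 to 22.1 for the 10 other pairs within groups. These values come from unscaled counts and grow with depth, so pairs of unlike depth are not strictly comparable. Replicates 1, 2 and 3 of this group held 149.7, 44.7 and 127.2 M counts, and replicates 2 and 3 gave 7.70. STK19 itself stood at 23.7, 22.8 and 22.1 CPM (TMM-scaled counts in proportion to library size) with ATRi and 23.7, 25.4 and 22.8 CPM with DMSO in STK19_KO1, and at 23.5, 23.6 and 26.4 CPM with ATRi and 23.0, 22.9 and 22.8 CPM with DMSO in STK19_KO2. WT had 26.2, 28.9 and 28.2 CPM with ATRi and 24.02, 26.4 and 30.1 CPM with DMSO, and a gene count does not show an edit, so these values do not check the knockout label. Of 14 markers of the HEK293 line, 12 were present at 1 CPM or more, with sums of 1485 to 1696 CPM with ATRi and 1512 to 1671 CPM with DMSO. Markers of fibroblasts summed to at most 14.8 and 17.5 CPM and those of blood cells to at most 15.3 and 17.8 CPM, with HBB at 0, and squamous markers to at most 50.6 and 54.0 CPM, with IVL at 0. Kidney tubule markers summed to 16.3 to 18.6 CPM with ATRi and 18.7 to 21.02 CPM with DMSO, and the part of that shift in any result was not tested. All levels are relative abundances, and in such bulk samples fewer cells of a type and less RNA per cell cannot be told apart.

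With ATRi, a small set of genes led by immediate early and stress genes was higher, and few genes were lower. Of 14247 genes tested, 129 were called at an adjusted p under 0.05 (0.905%; edgeR's quasi-likelihood test with clone as a factor, Benjamini-Hochberg adjustment), 112 of them higher (0.786%) and 17 lower (0.119%). At an unadjusted p under 0.05 there were 1481 genes (10.4%). The changes were small. The median log2 fold change was 0.24 among genes called higher and -0.27 among those called lower, against 0.00091 over all genes tested. Of the 10139 genes whose log2 CPM averaged 3 or more, 98.2% changed by less than 0.2 on the log2 scale. A change of 2-fold or more was called in 2 genes (0.0140%), and both had low counts. ENSG00000256349 had 19 to 146 counts in STK19_KO1 with ATRi and 0 in the other 9 libraries, and ENSG00000285547 had 0 to 23 with ATRi and 12 to 63 with DMSO in STK19_KO1, and 0 to 5 with ATRi and 35 to 73 with DMSO in STK19_KO2. In 98 of the 112 genes called higher and 13 of the 17 called lower, the ATRi and DMSO libraries did not overlap in either clone, which was the case upward for 216 (1.52%) and downward for 102 (0.716%) of all genes tested. For called genes, this separation is largely set by calling them on the same libraries, so it describes them and is not separate support.

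**Figure D1:**
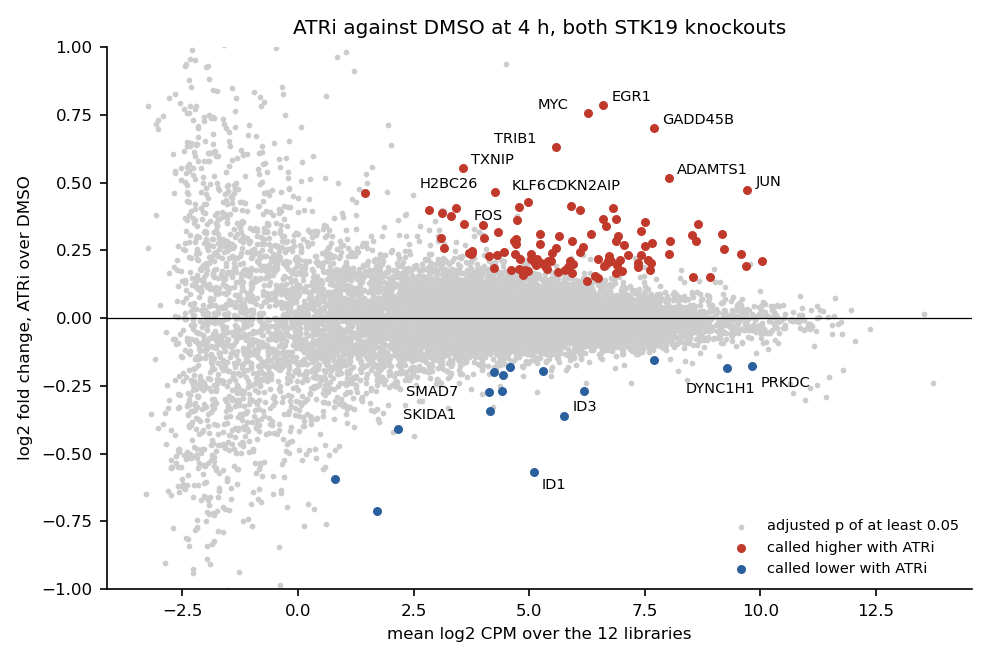
Each point is a gene tested in the 12 libraries, with its mean log2 CPM on the x axis and its log2 fold change (ATRi over DMSO, both clones) on the y axis; red genes were called higher with ATRi (112), blue genes lower (17) and grey genes were not called. EGR1, MYC and GADD45B stand highest among the called genes with a symbol and ID1 lowest among those whose log2 CPM averaged 3 or more, and 48 genes lie beyond the y axis, 2 of them called.

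The number of calls depended on single libraries. It was 58, 63 and 72 without replicate 3, 2 or 1 of STK19_KO1 in DMSO, 77 without replicate 2 of STK19_KO2 in DMSO and 83 without replicate 3 of STK19_KO1 with ATRi, while it was 142 without replicate 1 of STK19_KO1 with ATRi, the library that lay apart, with 117 of the 129 genes among them. DESeq2 called 243 genes, 180 higher and 63 lower (74.1% higher, against 86.8% of the edgeR calls), and 127 of the 129 were among them.

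EGR1, a zinc finger transcription factor that is induced within minutes of many stimuli, had the largest change among called genes with a symbol. It had 81.3, 89.9 and 90.6 CPM with ATRi against 46.9, 48.7 and 50.7 CPM with DMSO in STK19_KO1, and 149, 142 and 166 CPM with ATRi against 90.2, 92.0 and 93.8 CPM with DMSO in STK19_KO2. Every ATRi library lay above every DMSO library of its clone, and EGR1 rose by 0.78 ± 0.04 on the log2 scale (standard error, SE; edgeR, adjusted p = 1.4e-08), a factor of 1.72. STK19_KO2 carried more EGR1 than STK19_KO1 under either treatment, and the change was 0.73 ± 0.06 in STK19_KO2 and 0.84 ± 0.06 in STK19_KO1. MYC, which drives growth and proliferation genes, had 77.9, 90.8 and 88.4 CPM with ATRi against 50.2, 51.9 and 52.2 CPM with DMSO in STK19_KO1. In STK19_KO2 it had 97.0, 102 and 109 CPM with ATRi against 58.4, 60.6 and 61.5 CPM with DMSO. The groups were again apart in both clones, and MYC rose by 0.76 ± 0.04 (edgeR, adjusted p = 1.4e-08). GADD45B, whose protein binds stress-activated kinases and slows the cell cycle, had 215, 204 and 205 CPM with ATRi against 116, 118 and 124 CPM with DMSO in STK19_KO1, and 289, 282 and 306 CPM against 185, 196 and 202 CPM in STK19_KO2. Its groups did not overlap either, and it rose by 0.70 ± 0.04 (edgeR, adjusted p = 3.6e-08), by 0.80 in STK19_KO1 and by 0.60 in STK19_KO2.

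ADAMTS1, a secreted metalloprotease, rose by a smaller amount but with little spread. It had 283, 294 and 287 CPM with ATRi against 200.4, 207 and 202 CPM with DMSO in STK19_KO1, and 299, 314 and 308 CPM with ATRi against 215, 217 and 210.3 CPM with DMSO in STK19_KO2, without overlap. It rose by 0.52 ± 0.03 (edgeR, adjusted p = 1.4e-08). JUN and FOS, which pair to form the transcription factor AP-1, rose as well. JUN stood at 671, 808 and 812 CPM with ATRi against 521, 550 and 570.4 CPM with DMSO in STK19_KO1, and at 1094, 1103 and 1192 CPM against 791, 850.1 and 833 CPM in STK19_KO2 (log2 fold change 0.47 ± 0.05; edgeR, adjusted p = 1.8e-05). FOS stood at 24, 24.4 and 26.4 CPM with ATRi against 17.99, 17.8 and 19.6 CPM with DMSO in STK19_KO1, and at 36.01, 36.9 and 36.9 CPM against 27.4, 28.9 and 28.4 CPM in STK19_KO2 (0.41 ± 0.04; edgeR, adjusted p = 2.2e-05). Neither gene overlapped between treatments in a clone. In STK19_KO1 the lowest JUN value with ATRi came from replicate 1, the library that lay apart, and without it JUN changed by 0.51. The other named increases were in TRIB1, a pseudokinase that directs proteins to degradation (0.63 ± 0.04), TXNIP, which binds thioredoxin and restrains glucose uptake (0.55 ± 0.07), the zinc finger factor KLF6 (0.43 ± 0.05), CDKN2AIP, which binds the tumour suppressor ARF (0.41 ± 0.03), and the histone H2B genes H2BC26 (0.46 ± 0.06) and H2BC21 (0.41 ± 0.07). Each of these 12 genes kept its call under all 19 alternatives tried for single genes. ATR, the target of the inhibitor, stood at 35.6 ± 0.889 CPM with ATRi and 37.4 ± 1.54 CPM with DMSO in STK19_KO1 and at 35.2 ± 2.70 CPM with ATRi and 36.9 ± 2.21 CPM with DMSO in STK19_KO2 (SD, n = 3), and its RNA was not called (log2 fold change -0.07 ± 0.04; edgeR, adjusted p = 0.66).

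**Figure D2:**
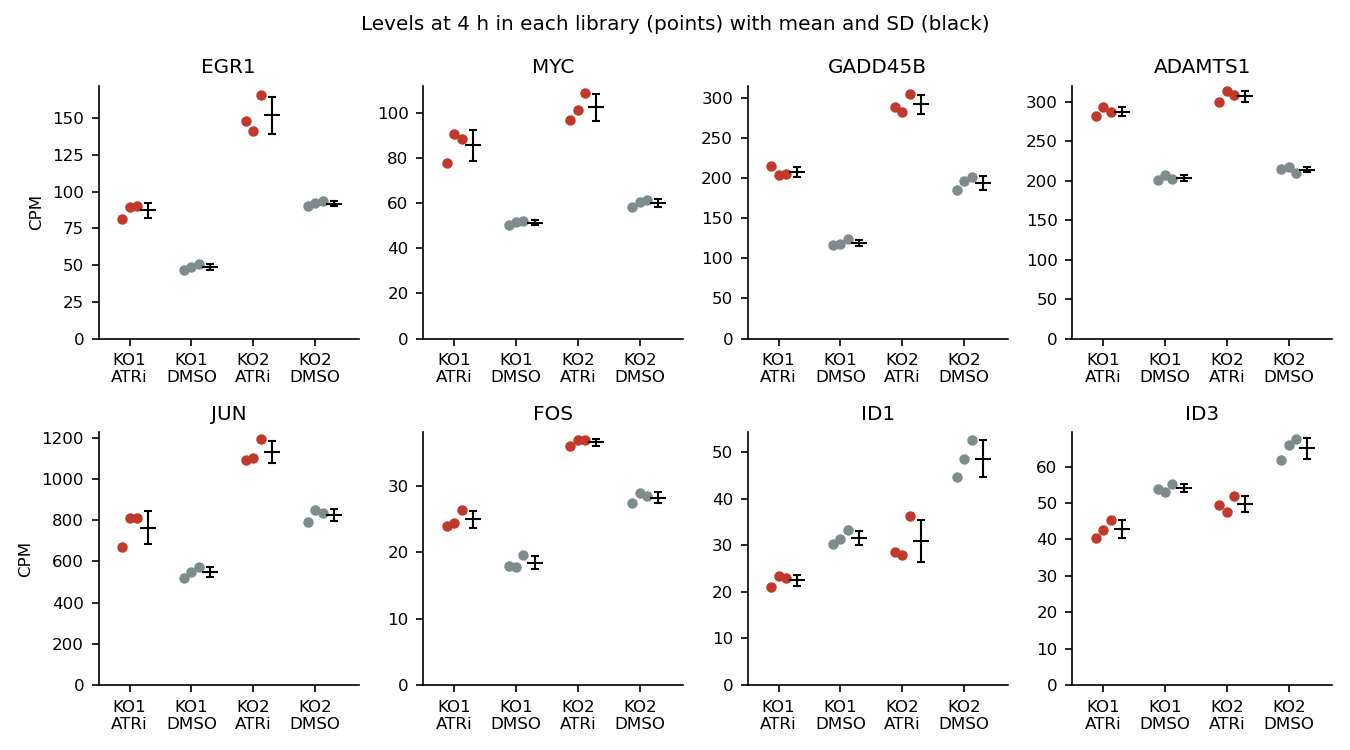
Level in CPM (y axis, from 0) of 8 genes in each 4 h library of STK19_KO1 and STK19_KO2, with ATRi in red and DMSO in grey, 1 point per library, and the mean with its SD (n = 3) in black. EGR1, MYC, GADD45B, ADAMTS1, JUN and FOS were higher in every ATRi library than in any DMSO library of the same clone, and ID1 and ID3 were lower.

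Promoter sequences of 3 genes called higher and of the leading gene called lower are shown, because they carry motifs that were searched for in all promoters. Each is the RefSeq window of 300 bases around the annotated start (GRCh38.p14), written on the strand of the gene, with capitals marking a CArG box, CCAAT (or its complement ATTGG), TGACGTCA or TATAAA (or its complement). Not every called gene carried them: the windows of ID3 and SMAD7, both called lower, held 0 of these motifs. Those of JUN and ATF3, both called higher, held 1 each. EGR1 (chr5:138465229-138465528, + strand) holds a pair of CArG boxes, GADD45B (chr19:2475877-2476176, + strand) a pair of CCAAT motifs before a TATAAA, DUSP1 (chr5:172771146-172771445, - strand), the gene of a phosphatase that switches off mitogen-activated kinases, the cyclic AMP response element TGACGTCA and a TATAAA, and ID1 (chr20:31605039-31605338, + strand), the gene of an inhibitor of helix-loop-helix factors, an ATTGG and a TATAAA.
EGR1: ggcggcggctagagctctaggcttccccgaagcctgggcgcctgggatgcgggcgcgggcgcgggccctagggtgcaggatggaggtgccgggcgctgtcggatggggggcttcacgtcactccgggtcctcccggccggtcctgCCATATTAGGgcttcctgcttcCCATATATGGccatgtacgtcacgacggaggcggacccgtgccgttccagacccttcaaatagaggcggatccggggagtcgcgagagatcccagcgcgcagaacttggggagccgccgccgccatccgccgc
GADD45B: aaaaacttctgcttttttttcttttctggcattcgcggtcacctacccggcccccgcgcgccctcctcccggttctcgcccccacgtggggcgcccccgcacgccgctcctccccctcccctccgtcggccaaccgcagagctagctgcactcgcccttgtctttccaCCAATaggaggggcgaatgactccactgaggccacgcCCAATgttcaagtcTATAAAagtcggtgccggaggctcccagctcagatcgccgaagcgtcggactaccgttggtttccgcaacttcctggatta
DUSP1: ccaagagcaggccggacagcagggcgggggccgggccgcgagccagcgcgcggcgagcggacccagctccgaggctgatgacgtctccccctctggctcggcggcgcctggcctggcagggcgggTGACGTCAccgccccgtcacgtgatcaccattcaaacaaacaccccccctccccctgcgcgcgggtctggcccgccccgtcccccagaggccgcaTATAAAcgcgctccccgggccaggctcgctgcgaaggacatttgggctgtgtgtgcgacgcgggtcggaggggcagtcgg
ID1: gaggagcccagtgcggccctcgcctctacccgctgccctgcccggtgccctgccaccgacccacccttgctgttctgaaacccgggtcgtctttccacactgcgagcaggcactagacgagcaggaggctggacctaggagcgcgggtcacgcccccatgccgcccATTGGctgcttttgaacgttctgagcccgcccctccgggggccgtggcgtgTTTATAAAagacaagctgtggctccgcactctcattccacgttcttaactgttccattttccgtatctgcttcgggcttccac

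A promoter window was given for 97 of the 112 genes called higher, 14 of the 17 called lower and 11343 of all genes tested, and the windows were searched on both strands. TATAAA was present in 21 of 97 windows of genes called higher (21.6%) and 2 of 14 of genes called lower (14.3%), against 5.98% of all. CCAAT, the motif of NF-Y, was in 50.5% and 28.6%, against 36.9%. The exact SRF motif that stands first in the EGR1 window was in 2 of 97 windows of genes called higher, and in 6 of all 11343 (0.0529%). Any CArG box, a motif added after the values were seen, was in 3.09% of windows of genes called higher and 1.11% of all. TGACGTCA (4.12% against 3.24%) and the AP-1 motif TGAGTCA (2.06% against 2.89%) were near the share over all genes. The CHR motif TTTGAA was in 14.4% of windows of genes called higher, 21.4% of those called lower and 9.51% of all. The E2F motifs TTTGGCGC and TTTCCCGC were each in 2 of the 97 windows, at 1.08% and 2.57% of all. These are matches of letters within these windows, without a test, and no overlaps between the motifs were removed.

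Immediate early genes were called in 1 direction, higher. All 29 on the list were tested and all 29 had a positive log2 fold change, against 7190 of 14247 genes overall. Of these, 10 were called higher and 0 lower, beside 0.786% and 0.119% of all genes tested, and the median log2 fold change was 0.17, against 0.00091 over all genes tested. The genes called higher were EGR1, MYC, JUN, KLF6, FOS, DUSP1 (0.37 ± 0.03; edgeR, adjusted p = 1.3e-05), IER2 (0.31), ATF3 (0.24), IER5 (0.23) and CCN1, a secreted matricellular protein (0.19). DUSP1 stood at 79.7, 87.1 and 88.9 CPM with ATRi against 65.9, 66.0 and 67.1 CPM with DMSO in STK19_KO1, and at 123, 126 and 130.0 CPM against 95.4, 101 and 98.3 CPM in STK19_KO2, without overlap. The close relatives of FOS, JUN and EGR1 on the list were not called, with FOSB at 0.12, JUNB at 0.15, JUND at 0.22, EGR2 at 0.32 ± 0.22 and EGR3 at 0.16 ± 0.07. SRF itself was at 0.00. The number called higher was 10 to 12 when each library was left out in turn. Among genes of ERK pathway feedback, which ERK signalling switches on to limit itself, 2 of 17 were called higher and 0 lower (median 0.037). They were the signalling inhibitor SPRY2 (0.32 ± 0.05) and the ERK phosphatase DUSP6 (0.25 ± 0.05), and the number fell to 1 without replicate 3 of STK19_KO1 with ATRi, replicate 2 or 3 of STK19_KO1 in DMSO, or replicate 1 of STK19_KO2 with ATRi.

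The list of stress genes tied to the transcription factor ATF4, which holds ATF4 itself beside its targets, also had calls. Of its 22 genes tested, 7 were called higher and 0 lower (0.786% and 0.119% of all genes tested), with a median of 0.088. The lists share members: ATF3 is also counted among the immediate early genes and SESN2 among the p53 targets. CHAC1, which degrades glutathione, rose by 0.38, PPP1R15A, which directs dephosphorylation of the translation factor eIF2α, by 0.36 ± 0.05, the mTORC1 inhibitor DDIT4 by 0.30 ± 0.04, DDIT3 (CHOP) by 0.30, ATF4 by 0.26, ATF3 by 0.24 and SESN2 by 0.20. PPP1R15A stood at 131, 124 and 120 CPM with ATRi against 89.9, 86.4 and 86.9 CPM with DMSO in STK19_KO1, and at 129, 129 and 136 CPM against 107, 116 and 118 CPM in STK19_KO2. Its groups were apart in both clones, by more in STK19_KO1. The amino acid genes of the same list were not called, with ASNS at 0.04, PSAT1 at 0.02, PHGDH at -0.01 and SLC7A11 at -0.06 on the log2 scale. SESN2 lost its call in 12 of the 19 alternatives, and the list had 5 to 8 calls when each library was left out. In the unfolded protein response list, 1 of 20 was called higher, the sensor ERN1 (0.17), and it lost its call in 10 of 19 alternatives, among them the one without replicate 1 of STK19_KO1 with ATRi.

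The p53 targets rose in 3 of 30, and 0 fell (0.786% and 0.119% of all genes tested), with a median of 0.045. GADD45A rose by 0.35 ± 0.05 (edgeR, adjusted p = 0.00083), the death-promoting PMAIP1 (NOXA) by 0.24 ± 0.05 and SESN2 by 0.20. GADD45A had 209.6, 186 and 176 CPM with ATRi against 136, 143 and 135 CPM with DMSO in STK19_KO1, and 199, 208 and 206 CPM against 175, 169 and 177 CPM in STK19_KO2. Its groups did not overlap, and without replicate 1 of STK19_KO1 with ATRi, its highest library in that clone, the change was 0.31. The best known p53 targets were not called: CDKN1A, the cell cycle inhibitor p21, was at 0.03 ± 0.05 and MDM2, which limits p53 itself, at 0.08. Without any of 6 libraries (replicate 3 of STK19_KO1 with ATRi, replicates 1, 2 and 3 of STK19_KO1 in DMSO, replicate 1 of STK19_KO2 with ATRi or replicate 2 of STK19_KO2 in DMSO) only 1 of the p53 targets was called, and without replicate 1 of STK19_KO1 with ATRi 4 were. GADD45G was also called (0.40), at a lower mean log2 CPM of 2.84 and without groups that were apart in both clones. All 3 GADD45 genes were thus called higher, an observation made after the values were seen. In the list of cell death genes of the BCL2 family, PMAIP1 was the 1 of 16 called, and it lost its call in 8 of 19 alternatives.

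The targets of TGF-beta, BMP and Notch signalling split, with 3 of 25 called higher and 3 lower (0.786% and 0.119% of all genes tested) and a median of 0.025. The 3 called lower are targets of BMP or TGF-beta. ID1, which blocks the binding of other helix-loop-helix factors to DNA, had 21.1, 23.4 and 22.9 CPM with ATRi against 30.2, 31.4 and 33.2 CPM with DMSO in STK19_KO1, and 28.6, 28.0 and 36.2 CPM with ATRi against 44.7, 48.6 and 52.7 CPM with DMSO in STK19_KO2. Every ATRi library lay below every DMSO library of its clone, with a log2 change of -0.57 ± 0.06 (edgeR, adjusted p = 8.8e-05), or 0.674 of the level with DMSO. ID3, its close relative, had 40.4, 42.6 and 45.4 CPM with ATRi against 53.9, 53.03 and 55.3 CPM with DMSO in STK19_KO1, and 49.5, 47.6 and 52.0 CPM against 61.9, 65.9 and 67.5 CPM in STK19_KO2. It also fell without overlap (-0.36 ± 0.04; edgeR, adjusted p = 7.1e-05). SMAD7, which shuts down TGF-beta and BMP receptors, stood at 14.4, 17.5 and 16.1 CPM with ATRi against 19.8, 20.3 and 19.3 CPM with DMSO in STK19_KO1, and at 14.99, 14.4 and 15.6 CPM against 16.9, 17.3 and 19.0 CPM in STK19_KO2 (-0.27 ± 0.05; edgeR, adjusted p = 0.015), and it lost its call without replicate 2 of STK19_KO1 in DMSO (edgeR, adjusted p = 0.056). The ID genes went both ways, as ID4 rose by 0.27 ± 0.04 and ID2 stood at 0.14 ± 0.03 without a call (edgeR, adjusted p = 0.061). HES1, a Notch target, rose by 0.29 ± 0.05, and ADAMTS1 was the third called higher. SMAD6, an inhibitor of BMP signalling, was at -0.12 ± 0.05 without a call.

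The other named decreases were in genes of mixed function. SKIDA1 changed by -0.34 ± 0.07, the nuclear envelope protein SYNE2 by -0.27 ± 0.05, FJX1 by -0.27 ± 0.06, THAP10 by -0.21 ± 0.04, the homeobox gene HOXC9 by -0.19 ± 0.04, the dynein heavy chain DYNC1H1 by -0.18 ± 0.04, the heme transporter SLC48A1 by -0.18 ± 0.04 and PRKDC, the catalytic subunit of the repair kinase DNA-PK, by -0.18 ± 0.04. SKIDA1 had 13.9, 16.98 and 18.1 CPM with ATRi against 23.7, 22.5 and 23.0 CPM with DMSO in STK19_KO1. In STK19_KO2 it had 13.7, 15.2 and 14.1 CPM against 16.6, 15.1 and 16.7 CPM, so that its groups overlapped there. NFKBIA, the inhibitor of NF-kB and the 1 of 15 genes called on the NF-kB list (beside 0.119% of all genes tested called lower), fell by 0.20 on the log2 scale. It lost its call in 14 of 19 alternatives. SKIDA1, SYNE2, FJX1, THAP10, HOXC9, DYNC1H1, SLC48A1 and PRKDC each lost their call in at least 3 of the 19. Outside the rule for named genes, and chosen after their values were seen, CD68 (-0.71), KCNRG (-0.59) and CEL (-0.41) were called lower at low counts, and FBN2, a fibrillin, at -0.15. CD68 is on the list of blood cell markers.

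Lists tied to the direct functions of ATR and STK19 showed 0 calls. Among 23 genes of the ATR checkpoint and fork protection, the median was 0.014 and the lowest p belonged to RAD17, a loader of the checkpoint clamp, at 0.14 ± 0.05 (edgeR, adjusted p = 0.28), with CHEK1 at 0.07 ± 0.05. Among 25 genes of nucleotide excision repair the median was 0.0093, with ERCC6, the gene of CSB, at 0.12 ± 0.04 (edgeR, adjusted p = 0.32). Homologous recombination and Fanconi genes (28, median 0.025; SLX4 at -0.18 ± 0.05), G1/S and replication genes (36, median 0.018; SLBP at 0.13 ± 0.05) and factors of the elongation kinase P-TEFb (20, median 0.0084; ELL2 at 0.09 ± 0.04, HEXIM1 at 0.02 ± 0.03) had no call either. At an unadjusted p under 0.05, edgeR counted 2 higher in the checkpoint list, 1 in excision repair, 3 in G1/S, 1 in P-TEFb and 2 higher and 2 lower in the Fanconi list, and DESeq2 called 0 in each. Of all genes tested, 10.4% passed this unadjusted threshold in either direction. Of 40 mitotic genes 1 was called, the centromeric histone CENPA (0.30 ± 0.06), while 33 of the 40 had a positive sign (median 0.056), and CENPA lost its call in 9 of 19 alternatives. Replication histones had 2 of 33 called higher, H2BC21 and H2AC6 (0.39 ± 0.06), with a median of 0.12, and reads of these near-identical copies may be shared between genes. The heat shock list had DNAJB1 higher (0.17 ± 0.04, 1 of 18) and the cholesterol list INSIG1 (0.18 ± 0.04, 1 of 23), and these lost their calls in 8 and 6 of 19 alternatives. Beside the counts of these lists, 0.786% of all genes tested were called higher and 0.119% lower. On the YAP and TEAD list, CCN1 rose and FJX1 fell (17 tested, median -0.0011). Interferon-stimulated genes had 0 of 20 called (median -0.026; IFI6 at -0.15 ± 0.05), ribosomal protein genes 0 of 45 (median -0.021, 35 of 45 negative; RPL31 at -0.07 ± 0.03) and nuclear genes of oxidative phosphorylation 0 of 39 (median -0.011; NDUFA9 at -0.09 ± 0.04). At an unadjusted p under 0.05, edgeR counted 1 higher and 1 lower among these interferon genes, 2 lower among the ribosomal and 1 lower among the oxidative phosphorylation genes, beside the same 10.4% of all genes tested. DESeq2 called 0 in each of these lists.

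**Figure D3:**
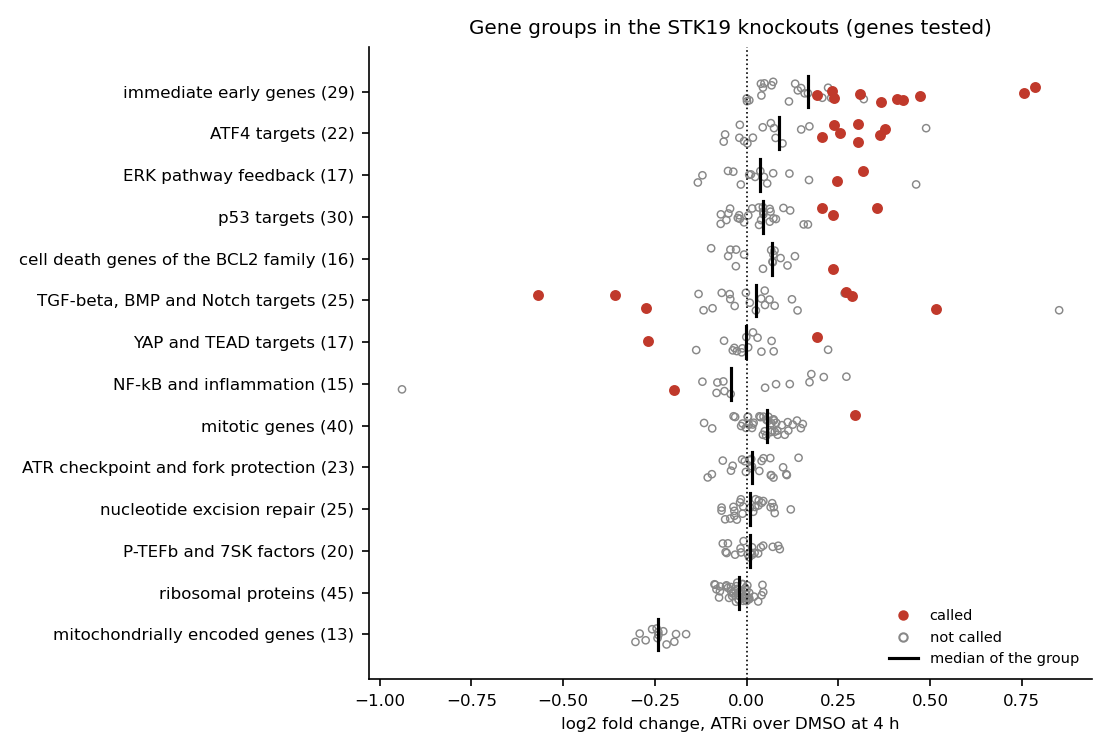
Log2 fold change (ATRi over DMSO at 4 h, both STK19 clones, x axis) of each tested gene of 14 lists (rows, with the number of genes tested), filled where called and open where not, with a black bar at the median of the list. Immediate early genes and ATF4 targets lie mostly above 0, the called targets of TGF-beta, BMP and Notch lie on both sides, and all 13 mitochondrially encoded genes lie below 0 without a call.

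RNA from the mitochondrial genome took a smaller mean share with ATRi. All 13 mitochondrially encoded genes had a negative log2 fold change (median -0.24) and 0 were called by edgeR, with 8 at an unadjusted p under 0.05 (beside 10.4% of all genes tested) and 2 called by DESeq2. Their share of all counts was 2.01%, 3.10% and 3.50% with ATRi against 3.31%, 3.32% and 3.72% with DMSO in STK19_KO1, and 3.13%, 3.33% and 3.55% with ATRi against 3.99%, 4.01% and 3.50% with DMSO in STK19_KO2. The groups overlapped in both clones, and the difference was -0.541 percentage points (exact permutation within clones, two-sided, p = 0.045, with 0.005 the smallest p possible). Without replicate 1 of STK19_KO1 with ATRi, which had the lowest share, it was -0.326 (exact permutation p = 0.080). With each library left out in turn, the p was 0.05 or above in 9 of 12 cases, up to 0.115 without replicate 3 of STK19_KO1 in DMSO.

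The median span of the called genes was short in both directions, though the genes called lower also included long ones. The median span was 10.9 kb for genes called higher and 11.1 kb for genes called lower, against 33.5 kb over all genes tested. Spans under 10 kb were found in 54 of the 112 genes called higher (48.2%) and 8 of the 17 called lower (47.1%), against 19.3% of all. Spans over 100 kb were found in 2 of the 112 and 4 of the 17, against 2920 of all 14247. Genes called lower numbered 8 of 2746 under 10 kb and 3 of 3918 at 10 to 30 kb. There were 2 of 4663 at 30 to 100 kb, 2 of 2337 at 100 to 300 kb and 2 of 583 above 300 kb. The share called higher was 1.97% among genes under 10 kb, 0.919% at 10 to 30 kb, 0.429% at 30 to 100 kb, 0.0856% at 100 to 300 kb and 0 of 583 above 300 kb. The genes as a whole did not show this fall with span. Their median log2 fold changes were -0.019, -0.0023, 0.010, 0.0089 and 0.0068 in the same order, lowest among genes under 10 kb. Per library, the mean log2 CPM of the 2920 genes over 100 kb minus that of the 2746 under 10 kb differed between ATRi and DMSO by 0.020, by 0.00078 in STK19_KO1 and by 0.039 in STK19_KO2 (exact permutation within clones, two-sided, p = 0.52). A p that misses the threshold does not show that long and short genes were affected alike.

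Of the 129 called genes, 128 had the same sign in both clones, which is largely set by calling them on the combined change of the same libraries. The exception was ENSG00000256349, at 0 in all STK19_KO2 libraries. Each clone tested alone, in a fit that shared the spread between the 4 groups, gave 65 calls in STK19_KO1 (0.456%; 51 higher, 0.358%, and 14 lower, 0.0983%) and 14 in STK19_KO2 (0.0983%; 12 higher, 0.0842%, and 2 lower, 0.0140%). These counts were unsteady. STK19_KO1 had 26, 19 or 23 calls without its DMSO replicate 1, 2 or 3, and STK19_KO2 had 34 without replicate 1 of STK19_KO1 with ATRi, which enters its estimate of spread. When the difference between the clones was tested directly, 0 genes were called (edgeR, adjusted p under 0.05; 440, or 3.09%, at an unadjusted p under 0.05), and a fit on all 72 libraries called 1. The lowest p values belonged to AHRR, a repressor of the aryl hydrocarbon receptor (-0.88 in STK19_KO1 and 0.45 in STK19_KO2), and the transcription factor ZFHX3 (-0.42 and 0.05). PPP1R15A (0.51 and 0.22), GADD45A (0.47 and 0.24) and SYNE2 (-0.40 and -0.14) moved more in STK19_KO1, and H2BC26 (0.32 and 0.60) and TXNIP (0.42 and 0.67) more in STK19_KO2, none of them with a called difference.

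To see how far this response depends on the line, the change with ATRi in the STK19 knockouts (mean of both clones) was set against that in CSB_KO and in WT in 1 fit of all 72 libraries. In that fit 204 of 15470 genes were called in the STK19 knockouts (1.32%; 173 higher, 1.12%), 460 in CSB_KO (2.97%) and 411 in WT (2.66%), numbers that also reflect that the first is a mean of 2 clones. Against CSB_KO the change differed in 334 genes (2.16%), 38 of them more positive (0.246%) and 296 more negative (1.91%) in the STK19 knockouts. Several immediate early genes rose more in the STK19 knockouts. MYC changed by 0.75 ± 0.04 in the STK19 knockouts and 0.18 ± 0.06 in CSB_KO, a difference of 0.57 ± 0.07 (edgeR, adjusted p = 4.4e-08), with CSB_KO levels of 37.8, 37.8 and 38.6 CPM with ATRi and 34.2, 33.7 and 32.6 CPM with DMSO. EGR1 changed by 0.78 ± 0.04 and 0.27 ± 0.06 in these lines (difference 0.52; edgeR, adjusted p = 2.9e-06), GADD45B by 0.70 ± 0.05 and 0.27 ± 0.08 (0.43; adjusted p = 0.0041), ADAMTS1 by 0.51 ± 0.02 and 0.09 ± 0.03 (0.42; adjusted p = 1.5e-10) and JUN by 0.47 ± 0.05 and 0.06 ± 0.08 (0.40; adjusted p = 0.0055). KLF6 and DUSP1 also differed, by 0.37 and 0.40. In all, 5 of the 29 immediate early genes had a called difference from CSB_KO in this direction and 0 in the other. Not every leading gene differed, since TRIB1 changed by 0.40 ± 0.06 in CSB_KO, FOS by 0.24 ± 0.07, H2BC26 by 0.69 ± 0.09 and ID1 by -0.42 ± 0.10, without a called difference from the STK19 knockouts.

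Mitochondrially encoded genes led the named differences from CSB_KO in the negative direction, and 12 of 13 were called. MT-CO1, a subunit of cytochrome c oxidase, stood at 13975, 15302 and 16191 CPM with ATRi against 9480.3, 7941 and 8789 CPM with DMSO in CSB_KO. It rose by 0.79 ± 0.10 there and changed by -0.24 ± 0.07 in the STK19 knockouts, a difference of -1.04 ± 0.12 (edgeR, adjusted p = 5.8e-09). MT-ND5 (-1.05), MT-ATP6 (-1.02) and MT-ND4 (-0.99) differed to the same degree. AOC3, an amine oxidase, was the 1 nuclear gene among the 5 most negative differences, at -0.98. It changed by -0.25 ± 0.06 in the STK19 knockouts and 0.74 ± 0.09 in CSB_KO. The mitochondrial share of counts in CSB_KO was 3.92 ± 0.307% with ATRi and 2.399 ± 0.222% with DMSO (SD, n = 3). CSB_KO is a single clone, so its clone and its knockout cannot be told apart.

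Against WT, 1 gene was called (0.00646%; 831, or 5.37%, at an unadjusted p under 0.05). ADAMTS1 rose by 0.51 ± 0.02 in the STK19 knockouts and by 0.27 ± 0.03 in WT, where it had 174, 167 and 170.4 CPM with ATRi against 141, 144 and 139 CPM with DMSO, a difference of 0.24 ± 0.04 (edgeR, adjusted p = 0.0056). The call was lost without replicate 2 of WT with ATRi (edgeR, adjusted p = 0.079) and in a fit of the 4 h libraries of these lines alone (edgeR, adjusted p = 0.44), and the count was 2 without replicate 1 of STK19_KO2 in DMSO, 3, 2 and 5 without replicate 1, 2 or 3 of WT in DMSO, and 0 without replicate 2 of WT with ATRi. EGR1 changed by 0.54 ± 0.06 in WT, MYC by 0.65 ± 0.06, GADD45B by 0.46 ± 0.08, JUN by 0.21 ± 0.08 and ID1 by -0.41 ± 0.10. These were smaller in size than in the STK19 knockouts without a called difference. Of the 112 genes called higher in the STK19 knockouts, 109 had a positive sign in WT and 68 were called higher there (60.7% of the 112, and 21.7% of the 314 called higher in WT), beside a background of 2.03%. In CSB_KO 95 had a positive sign and 27 were called higher (24.1%, and 6.47% of the 417 called there), beside 2.70%. The median log2 fold change of these 112 genes was 0.24 in the STK19 knockouts in the same fit, 0.11 in CSB_KO and 0.25 in WT. Since the 112 were chosen by their change in the STK19 knockouts, the first of these medians is set by that choice. Of the 17 genes called lower, 3 were called lower in WT (background 0.627%) and 1 in CSB_KO (background 0.278%).

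**Figure D4:**
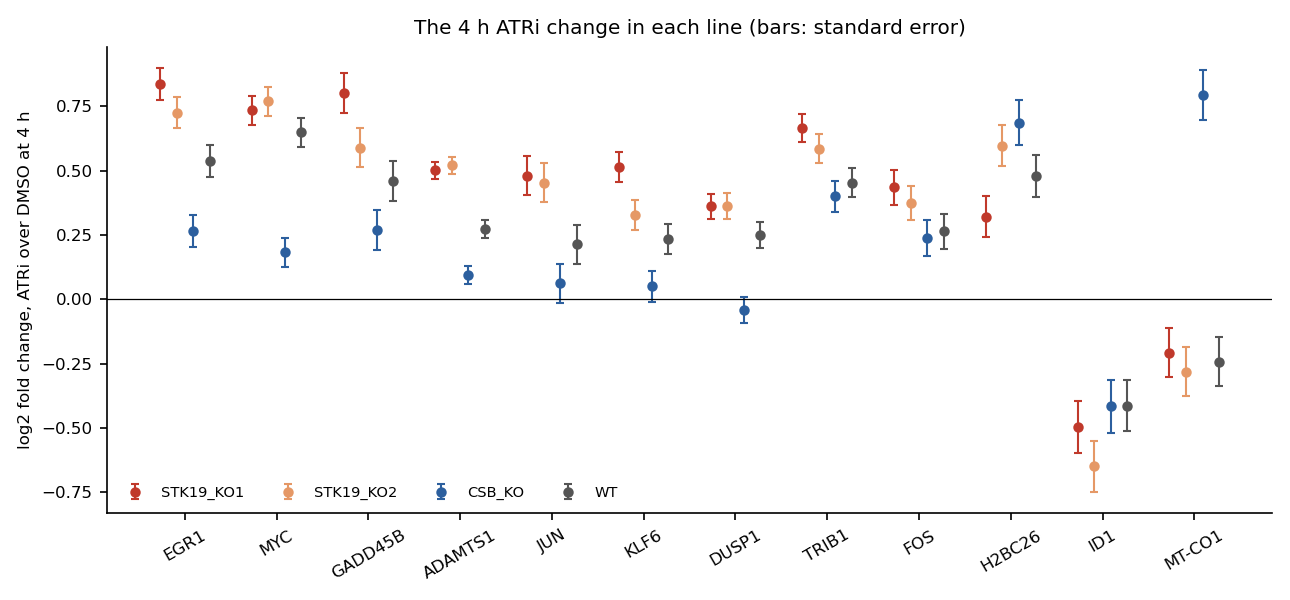
Log2 fold change (ATRi over DMSO at 4 h, y axis) of 12 genes in STK19_KO1 (red), STK19_KO2 (orange), CSB_KO (blue) and WT (grey), from the fit of all 72 libraries, with bars of 1 SE. EGR1, MYC, ADAMTS1 and JUN changed less in CSB_KO than in the STK19 knockouts, ID1 was negative in all 4 lines, and MT-CO1 was positive in CSB_KO alone.

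The same genes were followed over the labelled times in the STK19 knockouts. EGR1 in STK19_KO1 stood at 21.6 ± 0.317 CPM at 0 h, 48.4 ± 3.31 CPM at 3 h, 87.2 ± 5.14 CPM with ATRi and 48.8 ± 1.91 CPM with DMSO at 4 h, and 62.6 ± 4.83 CPM with ATRi and 19.5 ± 0.533 CPM with DMSO at 20 h (SD, n = 3). In STK19_KO2 the values were 20.2 ± 0.578, 86.9 ± 2.84, 152 ± 12.6 with ATRi and 92.0 ± 1.84 with DMSO, and 137 ± 4.16 with ATRi and 44.9 ± 2.24 CPM with DMSO. At 20 h EGR1 was below its 4 h level in both clones with ATRi and with DMSO. It was above its 0 h level in both clones with ATRi, and with DMSO in STK19_KO2 but not in STK19_KO1. MYC followed another course, with 109.5 ± 1.72 CPM at 0 h, 42.0 ± 1.47 CPM at 3 h, 85.7 ± 6.86 CPM with ATRi and 51.4 ± 1.11 CPM with DMSO at 4 h, and 81.4 ± 5.03 CPM with ATRi and 55.5 ± 1.89 CPM with DMSO at 20 h in STK19_KO1. Its level after UV was below that at 0 h in every group of both clones, and least so with ATRi. GADD45B in STK19_KO1 stood at 25.0, 111, 208 with ATRi and 119 with DMSO, and 264 with ATRi and 110.1 CPM with DMSO, at the same times. ID1 stood at 12.7, 33.7, 22.5 with ATRi and 31.6 with DMSO, and 11.2 with ATRi and 10.2 CPM with DMSO in this clone. In STK19_KO2 it stood at 20.0, 45.2, 31.0 with ATRi and 48.6 with DMSO, and 11.6 with ATRi and 12.1 CPM with DMSO. At 20 h it was below its 0 h level in both clones under either treatment.

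At 20 h, 76.0% of 14653 genes were called between ATRi and DMSO in the STK19 knockouts (37.7% higher and 38.3% lower), against 0.905% at 4 h. Of the 112 genes called higher at 4 h, 83 were called higher at 20 h (74.1% of the 112, and 1.502% of the 5525 called higher at 20 h) and 14 lower (12.5%). EGR1 rose by 1.62 ± 0.04 at 20 h, FOS by 1.502 ± 0.06, KLF6 by 1.45 ± 0.06, GADD45B by 1.196 ± 0.03 and JUN by 0.99 ± 0.03. MYC rose by 0.51 ± 0.03 and ADAMTS1 by 0.33 ± 0.02, less than at 4 h in size, and TRIB1 fell by 0.28 on the log2 scale. Neither ID1 (0.01 ± 0.05) nor ID3 (-0.03 ± 0.04) was called at 20 h, while SMAD7 was lower (-0.71 ± 0.04). Of the 17 genes called lower at 4 h, 5 were lower and 6 higher at 20 h. The changes from irradiation (3 h minus 0 h) covered 73.6% of 14317 genes (37.8% higher and 35.8% lower). Of the 112 genes, 73 were higher after UV (65.2%), among them FOS (2.59 ± 0.08), GADD45B (2.28 ± 0.07) and EGR1 (1.65 ± 0.12), and 30 were lower (26.8%), among them MYC (-1.48 ± 0.05), TRIB1 (-0.81 ± 0.07) and ADAMTS1 (-0.49 ± 0.06). Of the 17 genes called lower with ATRi, 9 were higher and 2 lower after UV, with ID1 at 1.29 ± 0.07.

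**Figure D5:**
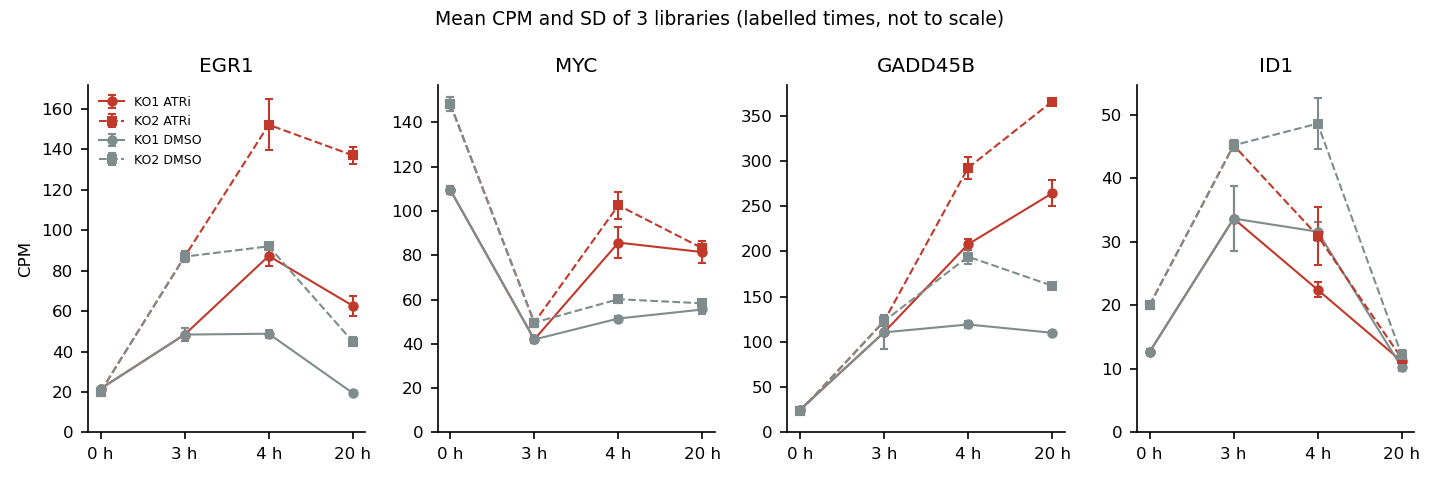
Mean level in CPM (y axis, from 0) with SD (n = 3) of EGR1, MYC, GADD45B and ID1 at the labelled times (x axis, not to scale) in STK19_KO1 (solid) and STK19_KO2 (dashed), with ATRi in red and DMSO in grey from 4 h on, both drawn from the shared 0 h and 3 h groups. ATRi lines of EGR1, MYC and GADD45B lie above their DMSO lines at 4 h and 20 h, and ID1 with ATRi lies below DMSO at 4 h and close to it at 20 h.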

How the data were processed

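Polyadenylated RNA was prepared with Qiagen RNeasy and NEBNext Ultra II Directional kits, per the labels' protocols. The deposited table holds expected counts per gene and library, which per the submitters' processing notes came from STAR alignment to GRCh38 and RSEM quantification, without versions, and its values are whole numbers. Coverage tracks were not used. Columns were matched to samples by label, and 0 columns of other samples were present.

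Genes were kept by filterByExpr (minimum count 10, minimum total 15) over the 4 groups, which left 14247 of 19324 genes. Libraries were scaled by TMM and tested with the quasi-likelihood test of edgeR 4.0.16 (limma 3.58.1, R 4.3.3) with clone and treatment as terms. Calls needed p under 0.05 after Benjamini-Hochberg adjustment across every gene in the fit. Clone values came from a fit of 4 group means, and comparisons of lines from a fit of all 72 libraries in 24 groups (15470 genes). The SE is the log2 fold change over the square root of its F. Levels in CPM use the TMM factors of all 72 libraries. The script was tested on simulated data. DESeq2 1.42.0 was an alternative.

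Members and gene lists were chosen with earlier results of these data known. Named genes were STK19 and ATR, the 12 largest called changes each way (symbol present, log2 CPM averaging 3 or more, same sign in both clones), up to 3 called members each way per list (or the lowest p), and up to 5 differences each way between lines (the 2 lowest p between clones). Other genes were named after their values were seen. Nothing in the labels says that replicates were separate cultures, so the p-values reflect only how far these samples spread, which may be technical. In fits without 1 library no group had under 2.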

Additional observations from a re-analysis of the deposited data

Results flagged for a closer look

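The change with ATRi at 4 h differed between the STK19 knockouts and another line in the following genes, by a direct test of the difference (edgeR on all 72 libraries, adjusted p under 0.05). Against WT, 1 gene was called, ADAMTS1, with a difference of 0.24 on the log2 scale. That call was lost in a fit of the 4 h libraries alone (0 genes; edgeR, adjusted p of ADAMTS1 0.44) and without replicate 2 of WT with ATRi (0 genes; edgeR, adjusted p 0.079). Against CSB_KO, 334 genes were called. The named genes that rose more in the STK19 knockouts than in CSB_KO were MYC (0.57), EGR1 (0.52), GADD45B (0.43), ADAMTS1 (0.42) and JUN (0.40). Those with the most negative differences from CSB_KO were MT-ND5 (-1.05), MT-CO1 (-1.04), MT-ATP6 (-1.02), MT-ND4 (-0.99) and AOC3 (-0.98). The mean share of mitochondrial counts was higher with ATRi than with DMSO in CSB_KO and lower in the STK19 knockouts. In WT it was also lower (4.15% with ATRi and 4.71% with DMSO). This share sums the counts of the mitochondrially encoded genes, so it is not a measure separate from their differences. Its part in the other differences was not tested.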

How the results depend on the processing

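No result that was called, in the main fit or under an alternative, changed direction. STK19, which was never called, ran from -0.016 to 0.044 on the log2 scale. The 129 calls became 198 with the replicate number within each clone as a block (163 higher, 35 lower), 204 with all 72 libraries sharing the spread, 243 with DESeq2 (180 higher, 63 lower; 1105 genes had no adjusted p), and 58 to 142 when each library was left out. They were 124 as a mean of the clones' changes, 121 with RLE factors, 134 without a filter and 115 after thinning to 38.5 M counts, an alternative chosen after seeing the data. STK19_KO1 alone had 141 calls with the block, 140 with 72 libraries and 19 to 72 with a library left out, and STK19_KO2 alone had 34 with 72 libraries and 12 to 34 with a library left out. The clone difference had 1 call with 72 libraries and 0 with any library left out. Whether the replicate numbers pair these samples is not settled. Deviations of same-numbered libraries correlated at -0.053 to 0.104 and those of the other pairs within a clone at -0.125 to 0.071. Values this small cannot decide whether a culture or day was shared. The block gave STK19_KO1 141 calls and STK19_KO2 21. Members of the gene lists called numbered 34, against 20 in STK19_KO1 alone, 8 in STK19_KO2 alone and 24 to 40 with a library left out. The count against WT was 2 with RLE, 0 with 4 h libraries alone and 0 to 5 with a library left out, and that against CSB_KO 234 to 344. The 20 h count was 10911 to 11091. The mitochondrial share difference was -0.698 to -0.326 percentage points with a library left out (exact permutation p 0.010 to 0.115) and lost its call in 9 of 12 cases. The span difference was 0.0037 to 0.041. Of 59 named genes, 1121 values under alternatives held 125 lost and 11 gained calls, and 26 of the 43 called genes kept their call throughout. The cause of these shifts was not tested. Where a library was left out, 2 remained in its group. Counts limit genes of low level: 109 of the 112 genes called higher and 13 of the 17 called lower had a mean log2 CPM of at least 3.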
